A study of Mus musculus with 12 samples.

Results

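The Rab5 genes and the early endosome effectors are the 10 mouse genes Rab5a, Rab5b, Rab5c, Eea1, Rabep1, Appl1, Appl2, Rbsn, Rabgef1 and Plekhf1, out of 21911 protein-coding genes in the GENCODE vM21 annotation of GRCm38. They were chosen by name, for what their proteins do, with earlier results of these data known. An accessible region belonged to a gene when it lay in the gene body or within 10 kb upstream of one of its transcription start sites (TSS), which gave 73 of the 263562 regions found in the series. Rab5a had 2 of them, Rbsn 3, Rab5b and Appl1 5 each, Rab5c and Plekhf1 7 each, Eea1 8, Rabgef1 9, Rabep1 12 and Appl2 15.

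Rab5 is the small GTPase that marks early endosomes, the first sorting station for material taken up by endocytosis, and in neurons these vesicles also carry trophic signals from the axon. Rab5 is switched on by exchange factors such as Rabex-5, the product of Rabgef1, which works in a complex with Rabaptin-5, the product of Rabep1. Active Rab5 recruits effectors: EEA1 tethers endosomes before they fuse, and Rabenosyn-5 (Rbsn) links Rab5 to fusion and recycling. The effectors APPL1 and APPL2 mark an early population of signalling endosomes. Phafin1 (Plekhf1) carries a FYVE domain that binds the endosomal lipid phosphatidylinositol 3-phosphate.

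The data were ATAC-seq peak lists from primary cortical neurons of E18 wild-type C57BL/6 embryos, 3 libraries in each of 4 groups, all labelled batch 1. The neurons received PBS, or preformed α-synuclein fibrils (PFF), which seed aggregation of the endogenous protein, for 7 days. In the PFF+MLi-2 group the inhibitor of the kinase LRRK2 was added for the last 5 days, and in the PFF+Rab5 ASO group antisense oligonucleotides against Rab5a and Rab5b were present for the last 3 days. The comparisons ask whether the chromatin of the genes that build the early endosome changed with PFF, and how it stood when LRRK2 was inhibited or Rab5 depleted. No group received MLi-2 or the Rab5 ASO without PFF, and a control oligonucleotide group was not analysed here. For both combined treatments the free-text label mentions PBS, whereas title and treatment label give PFF, and PFF was taken as right. The labels call the 3 libraries of a group replicates, and p-values measure the spread between them. According to the methods a replicate is a litter whose cultures were divided at random over the treatments, but no label ties a replicate number to a litter.

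Peak height is given as a percentile: the share of the peaks of the same library that have a lower fold enrichment over local background, so that 50 is the median peak of that library. Heights were tested with limma as the normal score of this rank, and an effect is a difference in standard deviations (SD) of the score. The 12 libraries held 137299 to 184564 peaks. Their depth relative to the mean was 0.940 ± 0.0327 with PBS, 0.842 ± 0.0737 with PFF, 0.999 ± 0.0378 with PFF+MLi-2 and 1.22 ± 0.147 with PFF+Rab5 ASO (SD, n = 3 each), and the median peak of the PFF+Rab5 ASO libraries was narrower, 118 ± 6.00 bp against 131 to 138 bp in the other groups. The depth estimate includes the smallest peak width of a library, 55.7 ± 3.06 bp with PFF+Rab5 ASO against means of 63 to 65 bp elsewhere. Depth and width are thus not separate observations. The part of depth and peak width in the values of the PFF+Rab5 ASO group was not tested, and this holds for every comparison with that group below. All 10 neuronal marker genes had a promoter peak in all 12 libraries, as did 3 of 4 astrocyte, 3 of 4 oligodendrocyte lineage and 0 of 4 microglial markers. Of the microglial markers, Csf1r had a promoter peak in 7 libraries, C1qa in 6, Tmem119 in 5 and Cx3cr1 in 0.

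The accessible DNA at the promoters of the 3 Rab5 genes and of Rabep1 is shown first, because these are the targets of the antisense treatment, their paralogue, and the most accessible promoter of the list. Each line is the window of 300 bases around the highest summit, read 5′ to 3′ on the strand of the gene and shortened where an annotated exon begins (GRCm38). Capitals mark every match to CACGTG (the E-box bound by the MiT/TFE factors of lysosomal genes, and part of TCACGTG and TCACGTGA), TGACGTCA (the cAMP response element), TGANTCA (AP-1), CCGGAA (ETS), GGGCGG (Sp1), GCGCATGC (NRF1) or CCAAT (NF-Y), on either strand. TCACGTGA was added after the sequences had been read.
Rab5a promoter, chr17:53478922-53479221, plus strand: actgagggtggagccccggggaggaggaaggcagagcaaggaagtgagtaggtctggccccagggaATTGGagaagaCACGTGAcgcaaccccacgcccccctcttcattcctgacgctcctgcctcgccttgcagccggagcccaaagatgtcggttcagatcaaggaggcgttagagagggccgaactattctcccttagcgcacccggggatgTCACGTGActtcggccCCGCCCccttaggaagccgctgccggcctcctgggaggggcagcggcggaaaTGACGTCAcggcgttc
Rab5b promoter, chr10:128696383-128696682, minus strand: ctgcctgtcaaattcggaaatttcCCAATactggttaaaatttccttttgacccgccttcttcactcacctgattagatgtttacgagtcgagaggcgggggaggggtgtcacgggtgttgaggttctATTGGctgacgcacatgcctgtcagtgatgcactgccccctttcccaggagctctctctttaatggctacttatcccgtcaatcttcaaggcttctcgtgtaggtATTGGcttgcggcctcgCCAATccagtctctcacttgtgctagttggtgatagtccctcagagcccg
Rab5c promoter, chr11:100738216-100738459, minus strand: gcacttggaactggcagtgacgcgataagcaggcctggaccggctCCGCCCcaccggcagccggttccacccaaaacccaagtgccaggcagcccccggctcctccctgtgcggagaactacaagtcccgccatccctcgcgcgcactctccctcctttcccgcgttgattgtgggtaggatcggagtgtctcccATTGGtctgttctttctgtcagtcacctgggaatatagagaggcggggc
Rabep1 promoter, chr11:70844577-70844777, plus strand: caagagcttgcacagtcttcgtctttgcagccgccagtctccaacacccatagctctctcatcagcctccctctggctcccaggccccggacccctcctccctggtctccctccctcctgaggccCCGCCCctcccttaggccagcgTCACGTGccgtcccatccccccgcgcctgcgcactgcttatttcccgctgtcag

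The Rab5a window held 2 copies of CACGTG, one of them inside the palindrome TCACGTGA, and 1 copy of TGACGTCA. Among the 10 member promoter windows, before shortening, CACGTG was found in 2 (Rab5a and Rabep1), beside 9.65% of the 14263 promoter windows of the series. The longer TCACGTGA was in the Rab5a window alone of the 10, beside 1.58% of all promoter windows, and TGACGTCA likewise in Rab5a alone, beside 3.26%. The Rab5b window held 4 copies of CCAAT and no match to the E-box or Sp1 letters. The Sp1 letters were in the windows of the other 9 genes (63.9% of all promoter windows), those of NF-Y in 6 (36.3%), of ETS in 3 (23.7%) and of NRF1 and AP-1 in 0 (4.88% and 4.69%). Base composition ran from a GC content of 51.3% at Rab5b to 78.0% at Rabgef1, around the median of 63.7% for promoter windows. These matches are letters in a window and no record of binding.

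The regions of these genes were found in about as many libraries as those of the series. Of the 73 regions, 23 (31.5%) had a peak in all 12 libraries, beside 27.5% of all regions, and 20 (27.4%) had a peak in 1 library, beside 26.6%. The 18 regions within 1 kb of a TSS were the highest, with a median percentile of 92.7, and 12 of them were present in all libraries. The 34 intronic regions had a median of 28.9, with 5 in all libraries, and the 16 upstream regions a median of 39.2, with 4 in all libraries. The number of member regions with a peak was alike in the 4 groups, 39.3 ± 7.09 with PBS, 40.3 ± 5.51 with PFF, 38.3 ± 4.16 with PFF+MLi-2 and 39.3 ± 3.21 with PFF+Rab5 ASO. Libraries of 1 group differed by more than the group means did, with 33 to 47 in PBS.

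**Figure D1:**
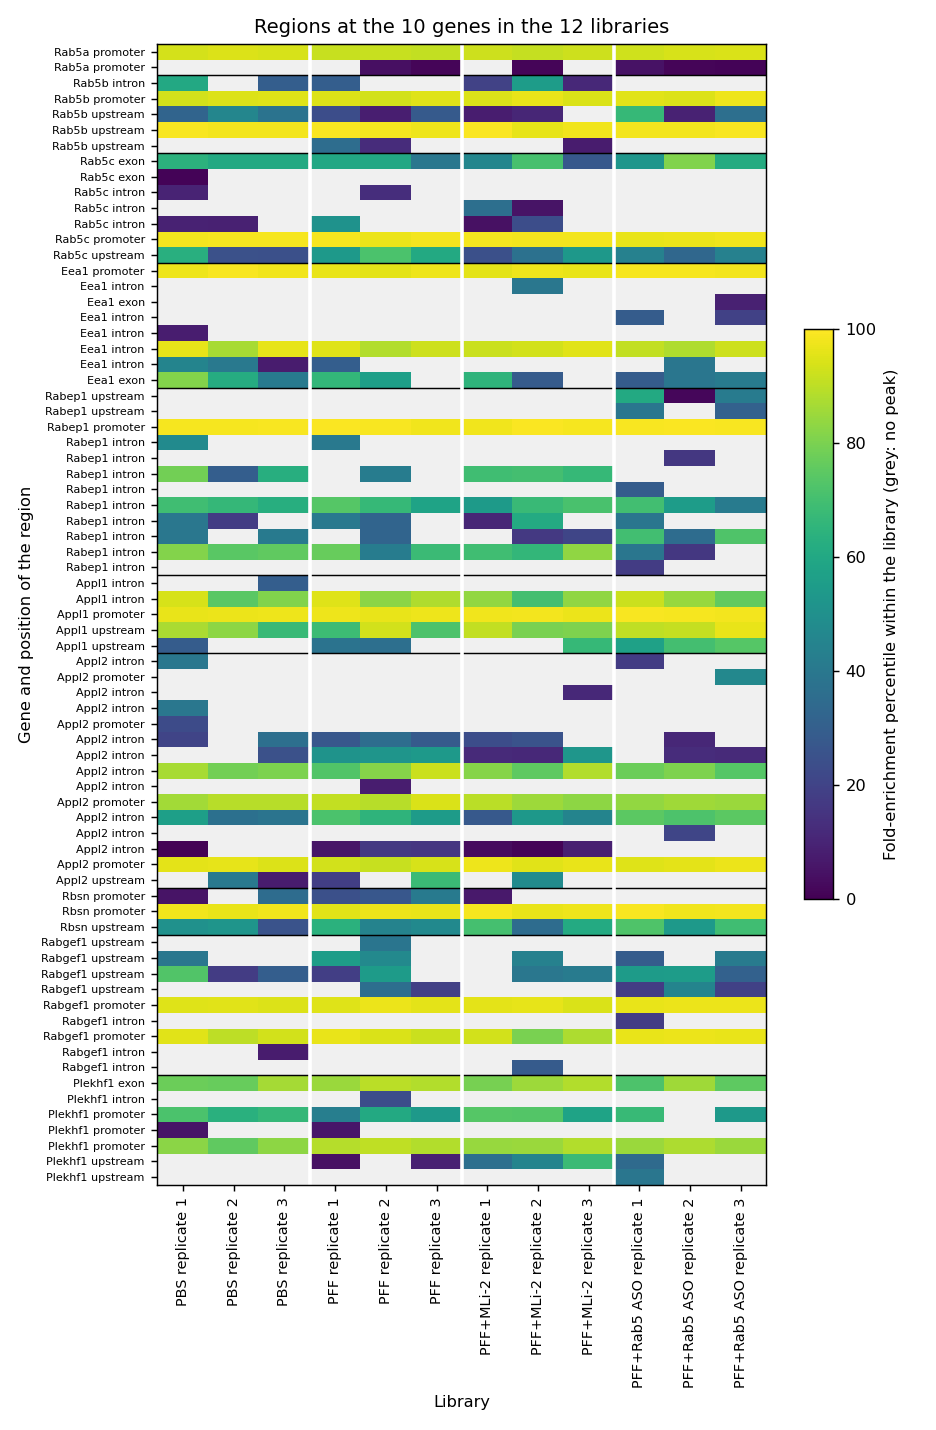
The 73 regions of the 10 genes (rows, in genomic order within a gene) in the 12 libraries (columns), coloured by the percentile of fold enrichment in the library, with grey for no peak. Of the 18 promoter rows, the 12 filled in every column are bright, and the others are broken. Most intronic and upstream rows are dark or broken, and 23 rows are filled in all 12 libraries.

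Few regions appeared or disappeared as a whole between groups. A gained region was one with a peak in every library of the group named first and in 0 libraries of the other, and a lost region the reverse. In PFF vs PBS, 0 of 58 member regions were gained or lost, beside 1.5% of all regions. In PFF+MLi-2 vs PFF the count was 0 of 55, beside 2.01%. In PFF+Rab5 ASO vs PFF, 1 was gained and 2 were lost of 63, beside 4.57%. In PFF+MLi-2 vs PBS, 1 was gained and 1 lost of 58, beside 0.803%, and for PFF+Rab5 ASO vs PBS, 3 were gained and 1 lost of 65, beside 3.58%. These counts of 0 to 4 regions were too few to read a share of the members against that of the series.

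The heights of the 23 regions present in every library gave a similar picture. Limma, with Benjamini-Hochberg adjustment over 72408 regions, called 0 member regions for PFF vs PBS, where it called 0% of all regions, 0 for PFF+MLi-2 vs PFF (0% of all) and 0 for PFF+MLi-2 vs PBS (0% of all). At an unadjusted p under 0.05 the members numbered 3 (13.0%), 1 (4.35%) and 0 in these comparisons, beside 9.71%, 11.4% and 5.77% of all regions (7034, 8277 and 4180). In PFF+Rab5 ASO vs PFF, 0 member regions were called, beside 3.82% of all regions, and 4 (17.4%) had an unadjusted p under 0.05, beside 21.1% of all. That background moved with the libraries used, and without 1 library the calls over all regions, 2767 in the full set, numbered 0 (without PFF+Rab5 ASO replicate 1) to 981. In PFF+Rab5 ASO vs PBS, 1 was called, beside 1.63%, and 3 (13.0%) had an unadjusted p under 0.05, beside 18.7% of all. Here the 1178 calls over all regions fell to between 0 and 29 without any 1 library. In the test across the 4 groups 1 was called, beside 3.5%, and without 1 library the 2534 calls behind that share numbered 279 to 2206. That region was the same in both tests, an intronic region of Appl2. The median effect over the 23 regions was -0.02 for PFF vs PBS, 0.07 for PFF+MLi-2 vs PFF, 0.15 for PFF+Rab5 ASO vs PFF, 0.06 for PFF+MLi-2 vs PBS and 0.08 for PFF+Rab5 ASO vs PBS, beside medians of -0.02, 0.01, 0.01, 0.00 and -0.01 over all regions. In simulated data with 200 shifted regions, a shift of 2 SD was recovered in 51% to 66% of them and a shift of 1 SD in 0%. The adjusted threshold depends on how many regions change, so these shares do not carry over to the comparisons with PFF+Rab5 ASO, where more regions were called.

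**Figure D2:**
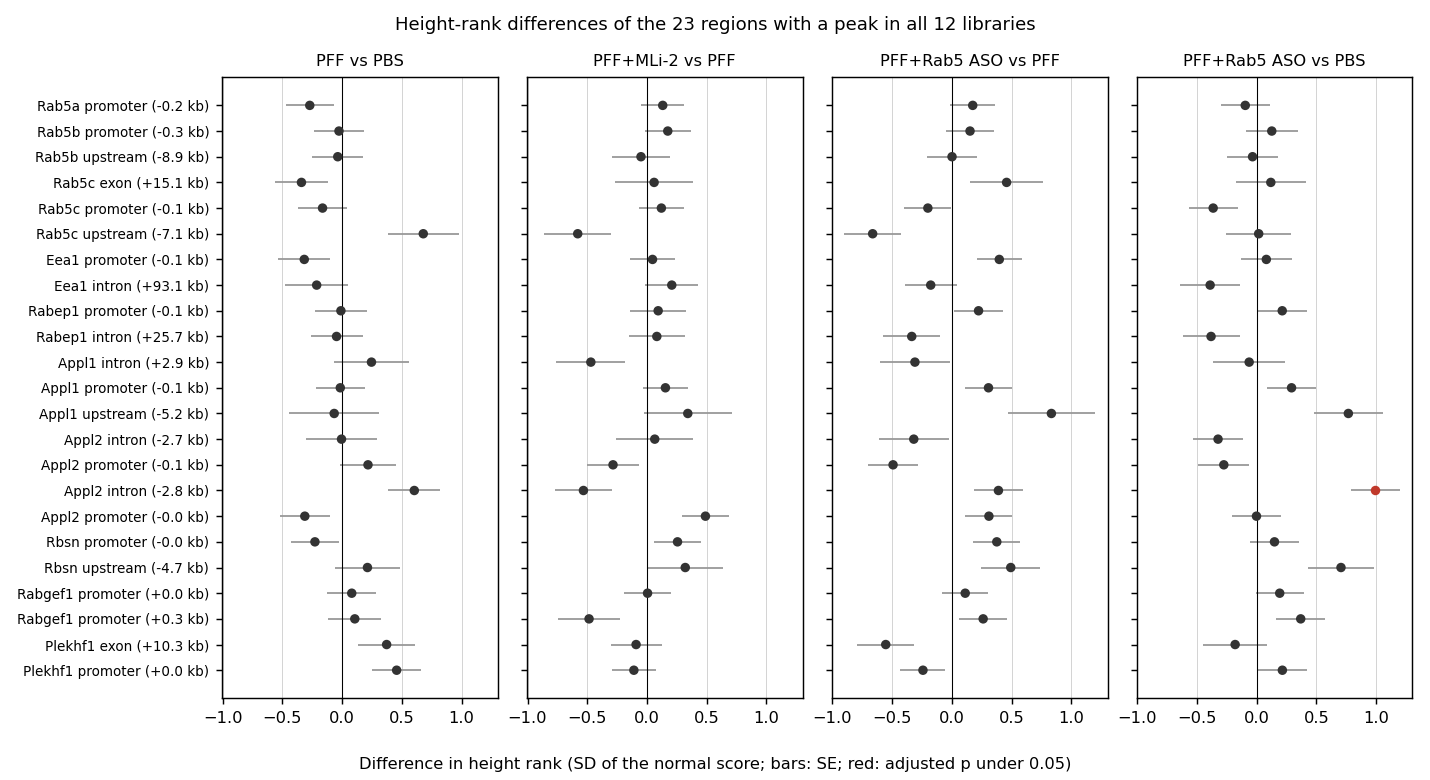
Difference in height rank (horizontal axis, SD of the normal score, bars show the SE) of the 23 member regions with a peak in all 12 libraries, in 4 comparisons. Values right of 0 are higher in the first group. The Appl2 intron in red, at 0.99 for PFF+Rab5 ASO vs PBS, was the single region with an adjusted p under 0.05.

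Counting regions whose 3 percentiles in one group all lay above or below the 3 of the other gave 5 of 23 for PFF vs PBS (1 higher and 4 lower), beside 14.6% of all regions. The counts were 3 for PFF+MLi-2 vs PFF (1 higher, 2 lower, beside 18.1%) and 3 for PFF+MLi-2 vs PBS (1 higher, 2 lower, beside 10.6%). They were 9 for PFF+Rab5 ASO vs PFF (6 higher, 3 lower, beside 25.8%) and 10 for PFF+Rab5 ASO vs PBS (8 higher, 2 lower, beside 22.3%). Comparisons with PFF+Rab5 ASO had the higher counts among the members as they had in the series.

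The Rab5 genes themselves are described next, since Rab5a and Rab5b were the targets of the ASO. An ASO acts on the transcript, which ATAC-seq does not read, so these values do not check the depletion. The Rab5a promoter region (chr17:53478666-53479859) had percentiles of 93.5, 94.7 and 93.8 with PBS, 91.7, 91.5 and 90.7 with PFF, 92.2, 91.4 and 92.4 with PFF+MLi-2 and 92.6, 94.0 and 94.2 with PFF+Rab5 ASO. All PBS libraries were above all PFF and all PFF+MLi-2 libraries, and all PFF+Rab5 ASO libraries were above all PFF libraries. Neither difference passed the test, with an effect of -0.27 (SE 0.201, limma adjusted p = 0.711) for PFF vs PBS and 0.17 (adjusted p = 0.647, 95% interval -0.24 to 0.59) for PFF+Rab5 ASO vs PFF.

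The Rab5b promoter region (chr10:128695758-128696867) stood at 93.3, 94.8 and 95.1 with PBS, 94.9, 93.1 and 95.1 with PFF, 94.8, 96.7 and 94.5 with PFF+MLi-2 and 95.3, 94.8 and 97.3 with PFF+Rab5 ASO. All 4 groups overlapped. The effect of PFF+Rab5 ASO vs PFF was 0.15 (SE 0.203, limma adjusted p = 0.725), with a 95% interval of -0.30 to 0.61, and it turned to -0.03 when regions were ranked by -log10 p. Rab5b had 3 regions more than 8 kb upstream, and these lay within 1 kb of the start sites of Cdk2 and Pmel, so they cannot be told apart from the promoters of those genes. The main one, present in all libraries, averaged a percentile of 98.3. An intronic Rab5b region (chr10:128685687-128685877) had a peak in 3 PFF+MLi-2, 2 PBS, 1 PFF and 0 PFF+Rab5 ASO libraries.

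The Rab5c promoter region (chr11:100737905-100738694), which the ASO did not target, had a higher mean than those of Rab5a and Rab5b in all 4 groups. It had percentiles of 98.4, 98.6 and 98.7 with PBS, 98.5, 97.1 and 98.2 with PFF, 98.5, 98.2 and 98.2 with PFF+MLi-2 and 96.8, 97.0 and 97.7 with PFF+Rab5 ASO. The PFF+Rab5 ASO libraries lay below all PBS libraries and overlapped the PFF libraries. The effect against PBS was -0.36 (SE 0.204, limma adjusted p = 0.376, 95% interval -0.82 to 0.09). Among the 10 promoters this was the one where the PFF+Rab5 ASO mean was the lowest of the 4 groups.

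A region 7101 bp upstream of Rab5c, inside the gene Kcnh4 (chr11:100745198-100745377), had a peak in all libraries. Its percentiles were 63.2, 24.97 and 24.5 with PBS, 53.6, 71.8 and 60.6 with PFF, 24.4, 37.1 and 53.2 with PFF+MLi-2 and 43.8, 33.2 and 44.0 with PFF+Rab5 ASO. Each PFF library exceeded the 3 with MLi-2 and the 3 with Rab5 ASO, while 1 PBS library reached into the PFF range. The effect was 0.68 for PFF vs PBS (limma adjusted p = 0.498), -0.58 for PFF+MLi-2 vs PFF (adjusted p = 0.477) and -0.66 for PFF+Rab5 ASO vs PFF (adjusted p = 0.147). None passed the test. This region was named after its values were seen.

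**Figure D3:**
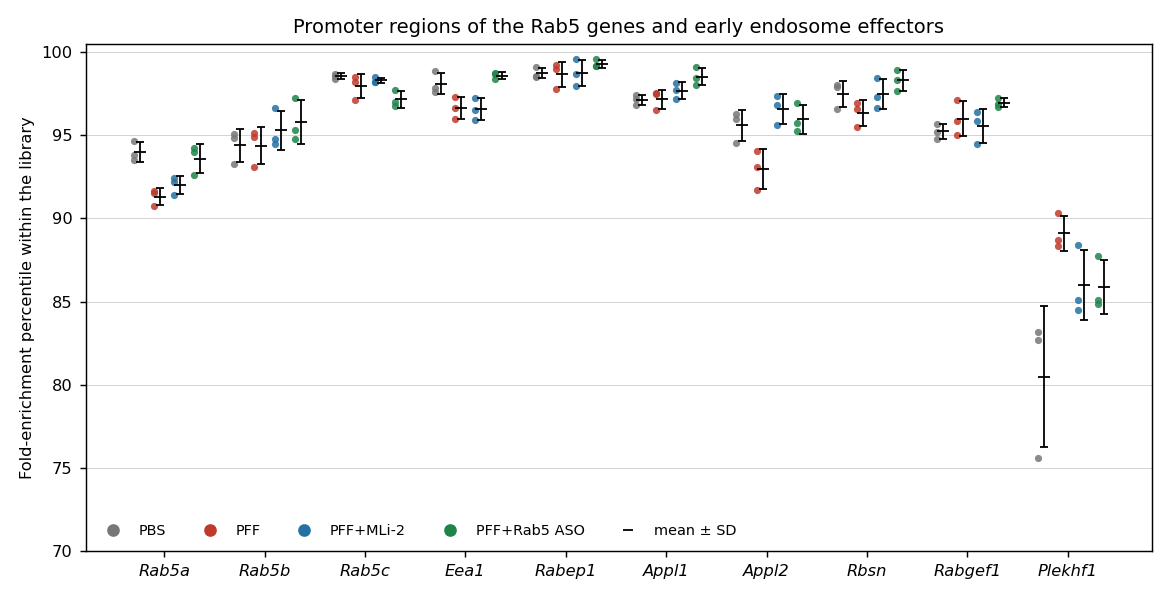
Percentile of fold enrichment in the library (vertical axis, starting at 70) at the promoter region of each of the 10 genes, 1 point per library, with the mean and SD of each group beside the points. The promoters of 9 genes stay above a percentile of 90 in all 12 libraries, and Plekhf1 lies lower, from 75.6 to 90.3.

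By mean percentile over the 12 libraries the promoters ran, from the highest, Rabep1 (98.9), Rab5c (98.0), Appl1 (97.6), Eea1 (97.5), Rbsn (97.4), Rabgef1 (95.9), Appl2 (95.3), Rab5b (94.97), Rab5a (92.7) and Plekhf1 (85.4). The ranges of neighbours in this order overlapped within each pair except for Rab5a and Plekhf1. Among the promoter regions of all protein-coding genes, Rabep1 stood above 91.7%, Rab5a above 57.1% and Plekhf1 above 38.4%. The 2 promoters whose library profile was most like that of Rab5a over the 12 libraries, of 13736 compared, were Stx4a (Pearson's r = 0.94) and Cdk4 (0.92). For Rab5b they were Golim4 (0.95) and Rgs17 (0.94), and for Rab5c Catsperg1 (0.94) and Dmwd (0.93). These are the highest of many correlations over libraries that share depth and group, and are given as a description.

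The exchange factor complex was open at both of its promoters. The Rabgef1 promoter region had means of 95.2 ± 0.432 with PBS, 96.0 ± 1.05 with PFF, 95.6 ± 1.02 with PFF+MLi-2 and 97.0 ± 0.273 with PFF+Rab5 ASO (SD, n = 3 each). The Rabep1 promoter region had means of 98.7 ± 0.314, 98.7 ± 0.766, 98.7 ± 0.798 and 99.3 ± 0.240 in the same order. Neither passed the test in any comparison, with limma adjusted p of 0.586 to 0.996 over the 5 comparisons. A downstream Rabgef1 start site (chr5:130187410-130187683), which also lies within 1 kb of the start of Gm15920, had percentiles of 95.7, 89.95 and 93.2 with PBS, 96.8, 94.3 and 91.8 with PFF, 93.3, 79.9 and 87.7 with PFF+MLi-2 and 96.5, 97.1 and 96.7 with PFF+Rab5 ASO. The values of PFF+Rab5 ASO were close together and those of PFF+MLi-2 scattered below them, as were 3 of 3 PBS values, with a p of 0.0372 across the 4 groups before adjustment and 0.200 after it. This region was picked out after its values were seen.

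Among the distal regions of these genes, 2 were gained with the Rab5 ASO. At Rabep1, a region 9316 bp upstream (chr11:70835384-70835514) had a peak in the 3 PFF+Rab5 ASO libraries and in none of the other 9, and so was gained against both PFF and PBS. Its percentiles were 60.7, 1.81 and 41.7, resting on 16, 8 and 13 fragments at the summit, so that 1 of the 3 peaks was among the lowest of its library. For PFF+Rab5 ASO vs PFF, 0 member regions were gained with equal numbers of top peaks, with a -log10 q of at least 3 or with merging at 50 bp. A neighbouring region (chr11:70835678-70835825) had peaks in 2 PFF+Rab5 ASO libraries only. At Rabgef1, a region 5410 bp upstream (chr5:130166306-130166437) counted as gained for PFF+Rab5 ASO vs PBS, with peaks in 3 PFF+Rab5 ASO, 2 PFF, 0 PFF+MLi-2 and 0 PBS libraries and 10 to 13 fragments where present.

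Inside Rabep1, a region 15580 bp from the nearest annotated start site (chr11:70860500-70860674) counted as lost for PFF+Rab5 ASO vs PBS. It had percentiles of 78.8, 29.8 and 62.8 in PBS, a peak in 1 PFF library (42.0), 69.3, 70.2 and 67.1 in PFF+MLi-2 and no peak in PFF+Rab5 ASO. A larger region 73104 bp from the nearest start site (chr11:70917955-70918233) stood at 81.3, 74.6 and 75.4 in PBS, 76.9, 42.0 and 68.2 in PFF and 69.3, 66.0 and 83.3 in PFF+MLi-2, against 39.4 and 16.2 in 2 PFF+Rab5 ASO libraries and no peak in the third. All PFF+Rab5 ASO values lay below all others. Since 1 library had no peak, this region was outside the height test, and it was picked out after its values were seen.

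The sequences of 3 gained regions are shown here with the AP-1 letters TGANTCA in mind, which 13.8% of all 263556 windows of 300 bases held and 14 of the 73 member windows held. Of the 4 gained member regions, those of Rabep1 and Plekhf1 held TGAGTCA, and those of Rabgef1 and of Rab5a, the latter exonic and not printed, did not hold TGANTCA. The 4 regions were searched over their own 116 to 168 bases, fewer than a window holds, so they cannot be set against those shares. All printed here are whole regions, with capitals as above.
Rabep1 upstream, chr11:70835384-70835514, plus strand: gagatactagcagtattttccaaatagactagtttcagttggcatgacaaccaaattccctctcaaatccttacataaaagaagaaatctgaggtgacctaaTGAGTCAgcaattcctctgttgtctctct
Plekhf1 upstream, chr7:38230352-38230519, minus strand: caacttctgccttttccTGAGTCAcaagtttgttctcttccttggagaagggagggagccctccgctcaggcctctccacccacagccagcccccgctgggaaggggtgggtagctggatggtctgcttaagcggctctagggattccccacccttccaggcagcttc
Rabgef1 upstream, chr5:130166306-130166437, plus strand: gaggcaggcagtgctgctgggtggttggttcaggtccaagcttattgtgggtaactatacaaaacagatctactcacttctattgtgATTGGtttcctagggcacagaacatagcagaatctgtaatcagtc

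Of the tethering and fusion factors, Eea1 had a promoter region (chr10:95940294-95941405) with percentiles of 97.6, 98.8 and 97.9 with PBS, 96.6, 96.0 and 97.3 with PFF, 95.9, 97.3 and 96.5 with PFF+MLi-2 and 98.7, 98.7 and 98.4 with PFF+Rab5 ASO. PBS and PFF+Rab5 ASO libraries lay above all PFF and all PFF+MLi-2 libraries. The effect was -0.32 for PFF vs PBS (limma adjusted p = 0.686), 0.05 for PFF+MLi-2 vs PFF (adjusted p = 0.949) and 0.40 for PFF+Rab5 ASO vs PFF (adjusted p = 0.261), and none passed. Deep in the gene, 93055 bp from the nearest start site, an intronic region (chr10:96033719-96033919) was present in all libraries. Its means were 93.3 ± 5.43 with PBS, 92.0 ± 3.39 with PFF, 93.7 ± 1.87 with PFF+MLi-2 and 90.4 ± 2.11 with PFF+Rab5 ASO. A fainter one (chr10:96036095-96036210) counted as lost for PFF+MLi-2 vs PBS, with peaks in 3 PBS, 1 PFF, 1 PFF+Rab5 ASO and 0 PFF+MLi-2 libraries and 9 to 13 fragments where present.

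Rbsn had a promoter region at 97.5 ± 0.787 with PBS, 96.3 ± 0.779 with PFF, 97.5 ± 0.900 with PFF+MLi-2 and 98.3 ± 0.652 with PFF+Rab5 ASO (SD, n = 3 each). The PFF+Rab5 ASO libraries were above all PFF libraries, with an effect of 0.38 (limma adjusted p = 0.309). A small region 261 bp downstream of an internal start site (chr6:92214213-92214353) counted as lost for PFF+Rab5 ASO vs PFF. It had peaks in 2 PBS libraries, at percentiles 5.17 and 35.3, in all 3 PFF libraries, at 24.4, 27.1 and 40.8, in 1 PFF+MLi-2 library, at 6.84, and in 0 PFF+Rab5 ASO libraries. It lies beside the main promoter region, which had a peak in every library.

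Among the APPL adaptors, the Appl1 promoter region stood at 97.2 ± 0.295 with PBS, 97.2 ± 0.577 with PFF, 97.7 ± 0.501 with PFF+MLi-2 and 98.5 ± 0.526 with PFF+Rab5 ASO. All PFF+Rab5 ASO libraries were above all PBS and PFF libraries, yet the effects of 0.29 and 0.31 had limma adjusted p of 0.496 and 0.404. A region 5168 bp upstream (chr14:26976259-26976520) had 87.4, 82.9 and 67.7 with PBS, 68.4, 93.3 and 72.2 with PFF, 90.8, 79.9 and 80.8 with PFF+MLi-2 and 90.3, 91.1 and 96.6 with PFF+Rab5 ASO. It was higher with the ASO than in every PBS library, with an effect of 0.77 (SE 0.289, adjusted p = 0.188), and overlapped PFF, where 1 library reached 93.3.

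Of the 23 tested member regions, 1 in Appl2 passed the height test. The region (chr10:83639912-83640354) lies in an intron, 8.6 kb inside the gene and 2777 bp upstream of an internal start site. The 300 bases around its summit are given on the minus strand, with capitals as above, because this is the one sequence of the list tied to a called difference.
Appl2 intron, chr10:83640070-83640369, minus strand: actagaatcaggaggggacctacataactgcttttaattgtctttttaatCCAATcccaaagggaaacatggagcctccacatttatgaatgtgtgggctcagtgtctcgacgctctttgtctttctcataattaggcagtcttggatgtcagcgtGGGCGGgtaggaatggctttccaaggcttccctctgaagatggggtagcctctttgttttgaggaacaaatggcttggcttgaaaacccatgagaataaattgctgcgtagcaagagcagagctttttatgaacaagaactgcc
The window held 1 GGGCGG and 1 CCAAT and none of the other letters searched, and its GC content was 45.0%, beside a median of 47.3% for all windows.

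At this Appl2 region the percentiles were 56.3, 37.0 and 38.6 with PBS, 71.9, 64.9 and 54.7 with PFF, 27.9, 53.4 and 45.3 with PFF+MLi-2 and 74.8, 72.0 and 74.6 with PFF+Rab5 ASO. All PFF+Rab5 ASO libraries were above all others. The PFF libraries lay above all PFF+MLi-2 libraries, and 1 PBS library reached into the PFF range. In fold enrichment the region read 5.52, 4.71 and 4.67 in PBS and 6.57, 6.56 and 6.50 in PFF+Rab5 ASO, from 21 to 27 and 28 to 32 fragments at the summit.

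The effect of PFF+Rab5 ASO vs PBS was 0.99 (SE 0.203, 95% interval 0.55 to 1.44, limma adjusted p = 0.0444, higher in 3 of 3 libraries), and the test across the 4 groups had an adjusted p of 0.0384. The other comparisons did not pass: 0.60 for PFF vs PBS (adjusted p = 0.405), -0.53 for PFF+MLi-2 vs PFF (adjusted p = 0.447) and 0.39 for PFF+Rab5 ASO vs PFF (adjusted p = 0.308). PFF+Rab5 ASO vs PBS differs by both agents, and the share of each in this difference was not tested. The call rested on all 6 libraries. Without any 1 of them, each of the 3 PBS and each of the 3 PFF+Rab5 ASO libraries in turn, the adjusted p rose to between 0.0739 and 0.129 while the effect stayed between 0.94 and 1.06. It was also lost when regions were ranked by -log10 p (adjusted p = 0.0624), among regions with a peak in the 6 libraries (0.0535) and with the replicate number as a block (0.0832, and no member region below 0.0596 across the 4 groups). With equal numbers of top peaks no member region was called for PFF+Rab5 ASO vs PBS, the lowest adjusted p being 0.0514. The Appl2 call was kept with log2 fold centred within the library (limma adjusted p = 0.0390) and in the fit on all 12 libraries (0.0295). With a -log10 q of at least 3, 1 member region was called, at an adjusted p of 0.0417. The call across the 4 groups was kept in 4 of 12 fits that left out 1 library (adjusted p of 0.0386 to 0.120) and lost with the rank of -log10 p.

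**Figure D4:**
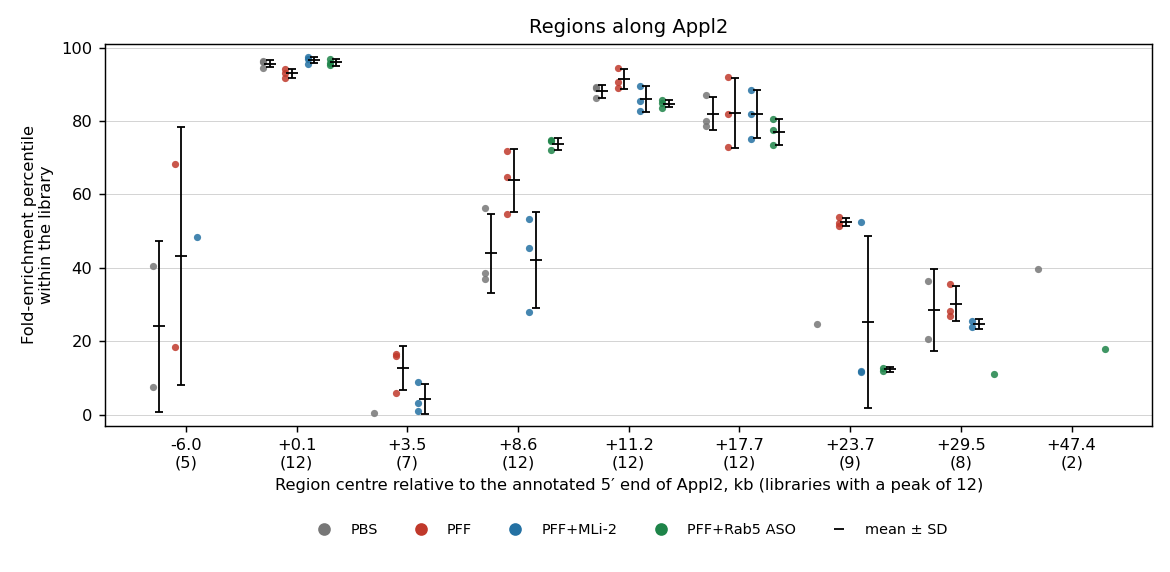
Percentile of fold enrichment in the library (vertical axis) at the regions of Appl2 with a peak in 2 or more libraries, ordered by distance from the 5′ end of the gene in kb (horizontal axis), with the number of libraries with a peak in brackets. At +8.6 kb the PFF+Rab5 ASO points, from 72.0 to 74.8, lie above all others, and at +3.5 kb PFF+Rab5 ASO has no points.

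The remaining regions of Appl2 did not move together. The promoter region (chr10:83648303-83648955) had 96.0, 96.3 and 94.5 with PBS, 93.1, 91.7 and 94.1 with PFF, 97.4, 95.6 and 96.8 with PFF+MLi-2 and 95.3, 95.7 and 97.0 with PFF+Rab5 ASO. The PFF libraries were below all libraries of the other groups, whereas at +8.6 kb they were above PFF+MLi-2. The promoter effects were -0.31 (limma adjusted p = 0.673) for PFF vs PBS and 0.49 (adjusted p = 0.393) for PFF+MLi-2 vs PFF. At an internal start site (chr10:83637378-83637718) the means were 88.2 ± 1.74 with PBS, 91.4 ± 2.68 with PFF, 86.0 ± 3.44 with PFF+MLi-2 and 84.8 ± 1.06 with PFF+Rab5 ASO. An intronic region (chr10:83645092-83645295) counted as lost for PFF+Rab5 ASO vs PFF. It stood at 5.81, 16.7 and 15.9 in PFF, 3.11, 0.979 and 8.87 in PFF+MLi-2 and 0.604 in 1 PBS library, with no peak in the rest.

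Plekhf1 had the lowest promoter of the list. Its promoter region (chr7:38227845-38228291) had percentiles of 82.7, 75.6 and 83.2 with PBS, 88.7, 90.3 and 88.3 with PFF, 84.5, 85.1 and 88.4 with PFF+MLi-2 and 84.8, 87.7 and 85.1 with PFF+Rab5 ASO. The PFF libraries lay above all PBS libraries, with an effect of 0.46 that did not pass the test (limma adjusted p = 0.506), and the PFF+MLi-2 libraries overlapped PFF. In the exon near the 3′ end (chr7:38217451-38217864) the means were 80.3 ± 5.58 with PBS, 87.7 ± 2.30 with PFF, 84.4 ± 4.52 with PFF+MLi-2 and 77.7 ± 7.23 with PFF+Rab5 ASO, with an effect of -0.55 (adjusted p = 0.223) for PFF+Rab5 ASO vs PFF. The upstream region printed above (chr7:38230352-38230519, 2425 bp from the nearest start site) counted as gained for PFF+MLi-2 vs PBS. It had no peak in PBS, percentiles of 4.64 and 9.21 in 2 PFF libraries, 36.6, 44.9 and 68.2 in the PFF+MLi-2 libraries and 34.7 in 1 PFF+Rab5 ASO library. The 3 PFF+MLi-2 values were above all others, resting on 17 to 25 fragments at the summit.

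At Rab5a a faint second region 705 bp downstream of an annotated start site (chr17:53479929-53480044) counted as gained for PFF+Rab5 ASO vs PBS. It had no peak in PBS, percentiles of 3.99 and 1.38 in 2 PFF libraries, 1.26 in 1 PFF+MLi-2 library and 4.73, 1.34 and 0.895 in PFF+Rab5 ASO. Every value was among the lowest 5% of the peaks of its library.

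The wider Rab5 pathway was read from a list of 42 other genes: exchange factors, GTPase-activating proteins, the class III PI3-kinase, phosphoinositide enzymes, CORVET and fusion subunits, further effectors and the Rab5 to Rab7 switch. All 42 had a region, 426 in sum, of which 138 were present in all libraries. Limma called 0 of 138 for PFF vs PBS, 0 for PFF+MLi-2 vs PFF, 1 (higher) for PFF+Rab5 ASO vs PFF, 0 for PFF+MLi-2 vs PBS and 3 (all higher) for PFF+Rab5 ASO vs PBS, with 3 in the test across the 4 groups. The share called was 0.725% for PFF+Rab5 ASO vs PFF, beside 3.82% of all regions, 2.17% for PFF+Rab5 ASO vs PBS, beside 1.63%, and 2.17% across the 4 groups, beside 3.5%. Gained and lost regions numbered 6 and 0 of 358 for PFF vs PBS, 1 and 8 of 347 for PFF+MLi-2 vs PFF, 6 and 11 of 366 for PFF+Rab5 ASO vs PFF, 2 and 4 of 334 for PFF+MLi-2 vs PBS and 8 and 2 of 351 for PFF+Rab5 ASO vs PBS. Their shares of 1.68%, 2.59%, 4.64%, 1.80% and 2.85% stood beside 1.5%, 2.01%, 4.57%, 0.803% and 3.58% of all regions. The median effects of the 138 regions, -0.06, 0.06, 0.07, -0.01 and 0.05 in the same order, all lay within 0.1 of 0.

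Vps8, a subunit of the CORVET tether that binds Rab5, had 2 of the called regions. One (chr16:21636542-21636748) had means of 49.7 ± 6.67 with PBS, 44.9 ± 8.06 with PFF, 58.8 ± 8.77 with PFF+MLi-2 and 76.4 ± 4.05 with PFF+Rab5 ASO, and was higher in PFF+Rab5 ASO than in PFF by 1.16 (SE 0.203, limma adjusted p = 0.0228). The other (chr16:21536645-21536929) had means of 56.1 ± 7.25, 78.8 ± 3.71, 61.8 ± 2.65 and 88.7 ± 4.45 in the same order, and was higher in PFF+Rab5 ASO than in PBS by 1.43 (SE 0.257, adjusted p = 0.0335). The PFF+Rab5 ASO libraries were above all others at both. Rin2, an exchange factor for Rab5, had a region (chr2:145840014-145840239) with means of 43.6 ± 15.5, 53.5 ± 11.5, 52.6 ± 18.2 and 76.2 ± 3.76, an effect of 1.10 for PFF+Rab5 ASO vs PBS (SE 0.234, adjusted p = 0.0478).

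Zfyve9, which encodes the FYVE protein SARA of early endosomes, had a region 1758 bp upstream of a start site (chr4:108782382-108782666). Its percentiles were 4.83, 0.932 and 14.4 with PBS, 45.6, 26.5 and 38.0 with PFF, 3.64, 1.82 and 12.8 with PFF+MLi-2 and 51.2, 42.9 and 37.1 with PFF+Rab5 ASO. PFF and PFF+Rab5 ASO libraries were all above all PBS and PFF+MLi-2 libraries. The effect was 1.26 for PFF+Rab5 ASO vs PBS (SE 0.270, limma adjusted p = 0.0488), 1.03 for PFF vs PBS (adjusted p = 0.298) and -0.97 for PFF+MLi-2 vs PFF (adjusted p = 0.253), so the first passed and the others did not. At the Vps8 region chr16:21536645-21536929 the PFF and PFF+Rab5 ASO libraries also lay above all PBS and PFF+MLi-2 libraries. Its effects of 0.87 for PFF vs PBS (limma adjusted p = 0.308) and -0.57 for PFF+MLi-2 vs PFF (adjusted p = 0.356) did not pass. Of these 4 pathway calls, 3 were lost in all 6 fits that left out 1 library (adjusted p of 0.0562 to 0.127), and the PFF+Rab5 ASO vs PFF call at Vps8 was kept in 2 of 6 (0.0449 to 0.0743). The same 3 calls were also lost with the replicate block (0.0745 to 0.0809) and with the rank of -log10 p (0.0545 to 0.0838), and Zfyve9 and Rin2 with all regions that had a peak in the 6 libraries (0.0546 and 0.0583). Rin2 was also lost in the fit on 12 libraries (0.0571), and its test across the 4 groups gave an adjusted p of 0.112. All 4 calls were kept with log2 fold centred within the library (limma adjusted p of 0.0128 to 0.0474). The PFF+Rab5 ASO vs PFF call at Vps8 was kept in every setting that left no library out (0.0105 to 0.0428).

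**Figure D5:**
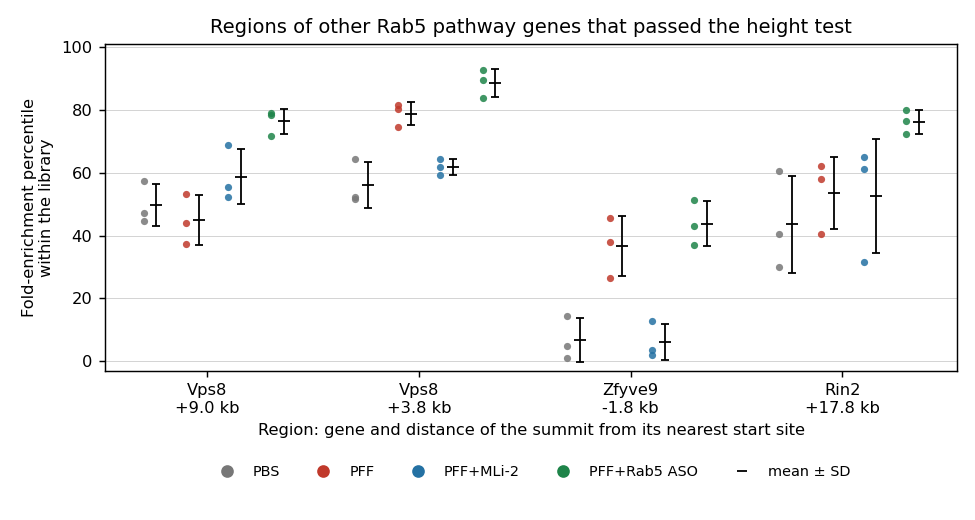
Percentile of fold enrichment in the library (vertical axis) at the 4 regions of other Rab5 pathway genes that passed the height test in a comparison of 2 groups, 1 point per library, with the mean and SD of each group. The PFF+Rab5 ASO points lie above all others at both Vps8 regions and at Rin2, while at Zfyve9 they share the range of PFF, with PBS and PFF+MLi-2 below.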

How the data were processed

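ATAC-seq peak lists of 12 libraries were analysed, 1 per library. Per the study's methods and the submitters' processing notes, the authors checked reads with FastQC, trimmed with Trim Galore 0.6.7, used Bowtie2 2.5.1 for alignment (GRCm38) and called peaks with MACS2 2.2.7.1 in each library without pooling. The MACS2 options, any Tn5 shift and duplicate removal are not given in the sources used here. The deposited values are the fold enrichment at the summit, a ratio over the local background of the same library, the -log10 p and -log10 q at the summit, and an integer score equal to 10 times -log10 q, rounded down.

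Peaks on the autosomes and on X and Y were merged where they overlapped by 1 bp or more. Regions were assigned to genes with GENCODE vM21, and distances run from the summit to the nearest annotated TSS of the gene, which can be an internal one. Fold enrichment was ranked within each library, over all its peaks for percentiles and over regions with a peak in all 12 libraries for normal scores. Both put libraries on 1 scale but still move with the length of the peak list and the depth. Scores were compared, where all 12 libraries had a peak, with limma 3.58.1 (R 4.3.3), over the 6 libraries of a comparison and over all 12 for the 4 groups, at an adjusted p (Benjamini-Hochberg) of 0.05. A single region compared in 3 against 3 libraries cannot reach an exact permutation p below 0.1. PBS and PFF libraries serve in more than 1 comparison, so these are not independent. Fragment numbers at the summit were solved from the deposited fold and -log10 p, and a simulation returned the right number for 99.3% of peaks. Relative depth is an estimate: the commonest background value solved with these numbers, divided by the smallest peak width of the library, relative to the mean. The limma step was tested on simulated data with 200 shifted regions.

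The promoter region of a gene is the region within 1 kb of a TSS with the highest mean percentile. Other member regions were named if gained, lost or called in any comparison, and pathway regions if among the 3 largest called effects of a comparison. The distal Rab5b, Rab5c, Eea1, Appl1 and Rabep1 regions, the internal start sites of Rabgef1 and Appl2 and the Plekhf1 exon were added after their values were seen. The members and lists were chosen with earlier results of these data known. Alternatives were other thresholds, merging, ranks, library sets, a replicate block and leaving out each library. Scripts used Python 3.11.15, scipy 1.17.1, matplotlib 3.10.9, pandas 2.3.3, numpy 2.4.6 and the R package data.table in version 1.17.8. Sequences were read from the GRCm38 genome.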

Additional observations from a re-analysis of the deposited data

How the results depend on the processing

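Counts of gained or lost member regions moved with the definition. When 2 of 3 libraries with a peak sufficed, against 0, they were 4 for PFF vs PBS, 2 for PFF+MLi-2 vs PFF, 7 for PFF+Rab5 ASO vs PFF and 10 for PFF+Rab5 ASO vs PBS, which is 6.90%, 3.64%, 11.1% and 15.4% of member regions beside 6.79%, 7.90%, 12.3% and 10.7% of all. With equal numbers of top peaks there was 1 of 52 in PFF+MLi-2 vs PFF, beside 1390 gained and 2016 lost of 186121 regions in the series. There was 1 of 51 in PFF+MLi-2 vs PBS, beside 735 gained and 829 lost of 184595. In PFF+Rab5 ASO vs PBS it was 1 of 53, beside 4748 gained and 3090 lost of 195297. A -log10 q of at least 3 gave 1 of 56 for PFF vs PBS, beside 2484 gained and 772 lost of 210137. Merging at 50 bp gave 1 of 73 for PFF+Rab5 ASO vs PFF, beside 5395 gained and 4261 lost of 270069. It gave 2 of 71 for PFF+Rab5 ASO vs PBS, beside 5278 gained and 2171 lost of 264342. Taking 2 kb upstream gave 1 of 47 for PFF+MLi-2 vs PBS, beside 0.803% of all regions. It gave 2 of 51 for PFF+Rab5 ASO vs PBS, beside 3.58%. Leaving out 1 library gave 0 to 3 for PFF vs PBS, 0 to 2 for PFF+MLi-2 vs PFF, 3 to 6 for PFF+Rab5 ASO vs PFF, 2 to 3 for PFF+MLi-2 vs PBS and 4 to 7 for PFF+Rab5 ASO vs PBS. The shares over all regions were then 2.79% to 3.71%, 3.50% to 4.30%, 6.85% to 7.21%, 1.81% to 2.74% and 5.29% to 6.71%, against 0% to 5.17%, 0% to 3.85%, 4.92% to 9.84%, 3.45% to 6.00% and 6.35% to 11.1% of member regions.

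The height call at the Appl2 intron became 0 regions for PFF+Rab5 ASO vs PBS with the rank of -log10 p, with equal numbers of top peaks, with all regions that had a peak in the 6 libraries compared and without any 1 library. Across the 4 groups it became 0 with the rank of -log10 p, and 0 to 1 without 1 library. The effect at the Rab5b promoter for PFF+Rab5 ASO vs PFF reversed to -0.0333 with the rank of -log10 p. The uncalled Appl2 effect for PFF+MLi-2 vs PBS ranged from -0.07 to 0.26 without 1 library and was -0.0733 without PFF+MLi-2 replicate 2. The alternatives for Vps8, Zfyve9 and Rin2 were chosen after seeing the data. In all of these the cause was not tested.

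With the replicate number as a block, 0 member regions were called for PFF+Rab5 ASO vs PBS and 0 across the 4 groups, and over all regions 1668 in place of 2767 were called for PFF+Rab5 ASO vs PFF and 0 in place of 1178 for PFF+Rab5 ASO vs PBS. Same-numbered libraries had correlations of deviations of 0.0052 to 0.0790, all under 0.1. Cultures of 1 litter were divided over the groups, but no label says that a number marks a litter, so the numbers were not taken as a pairing, and a pairing by litter could not be tested. Median peaks rested on 16 to 18 fragments at the summit, which limits what a missing peak can show.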
